A study of Mus musculus with 28 samples.

Results

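This account follows 32 genes of autophagy and the lysosome through mouse macrophages in which the Keap1-Nrf2 system was targeted with a small molecule, with siRNA to Keap1, or by knockout of Nrf2. The genes are 20 of autophagy and 12 of the lysosome, out of 18193 genes measured, and were taken by symbol. All 32 were on the array, and each was read from 1 probe set, the brightest on average over the 28 arrays. Of the 32, 23 had several probe sets. For some of these the value of another probe set, or of the mean over the probe sets, is printed. Not every other probe set is shown, and those not shown can differ from the one used. All 32 lay among the brighter 9097 of the 18193 genes by mean value.

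The macrophages were derived from marrow of C57BL/6 J mice, 12 weeks old. In the compound experiment, cells that were Nrf2+/+ (WT) or Nrf2-/- (KO) received RA839, a small molecule that binds Keap1 without a covalent bond, or its solvent DMSO, for 4 h. DMSO stood at 0.2% in all 4 compound groups (WT DMSO, WT RA839, KO DMSO, KO RA839). The siRNA experiment used WT cells only, transfected with siControl, siKeap1-1 or siKeap1-2, the last 2 being different siRNAs to Keap1. Each of the 7 groups held 4 arrays, which the submitters describe as biological replicates. The labels do not say how the arrays were spread over mice. The KO macrophages came from Nrf2-/- mice and so also developed without Nrf2. How much RA839 was used, how long after transfection RNA was taken and what the siRNAs' sequences were is not stated in the labels. Values are log2 expression values from RMA, the standard Affymetrix summary of probes into probe sets. Changes are log2 differences with their standard error after ±, each from 4 arrays a group. A gene rose or fell where its Benjamini-Hochberg adjusted p from limma, over 18193 genes, was under 0.05.

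Autophagy encloses cargo in a double membrane and delivers it to the lysosome. The ULK1 complex starts it, the BECN1-ATG14 lipid kinase complex and WIPI proteins mark the growing membrane, and a ubiquitin-like conjugation system (ATG3, ATG4B, ATG5, ATG7, ATG10, ATG12, ATG16L1) attaches LC3 and GABARAP proteins to it. Receptors such as p62, the product of Sqstm1, and NBR1 bring the cargo. Lysosomes then break it down with acid hydrolases, in an interior acidified by the V-ATPase, and TFEB is a transcription factor for many lysosome and autophagy genes. The link to Nrf2 runs through p62: p62 binds Keap1 and removes it from Nrf2 through autophagy, and Sqstm1 is itself a textbook Nrf2 target. Macrophages, as professional phagocytes, carry an abundant lysosomal system.

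RefSeq promoter windows of assembly GRCm38.p6, 300 bases from 250 before to 50 after the annotated start of transcription, were matched by gene ID for 25 of the 32 genes, 28 windows in all. The 250 bases upstream are shown for 4 genes that rose with both Keap1 siRNAs, Sqstm1, Atg4b, Wipi2 and Gabarapl2, and for Ctsd and Mcoln1, whose windows held at least 1 of the motifs searched. Each reads 5′ to 3′ on the strand of its gene. Sqstm1 lies at chr11:50210821-50211070 on the minus strand, Atg4b at chr1:93754655-93754904 on the plus strand, Wipi2 at chr5:142629334-142629583 on the plus strand and Gabarapl2 at chr8:111940453-111940702 on the plus strand. Ctsd lies at chr7:142387828-142388077 on the minus strand and Mcoln1 at chr8:3500269-3500518 on the plus strand. Capitals mark matches to the motifs described after the sequences.
Sqstm1: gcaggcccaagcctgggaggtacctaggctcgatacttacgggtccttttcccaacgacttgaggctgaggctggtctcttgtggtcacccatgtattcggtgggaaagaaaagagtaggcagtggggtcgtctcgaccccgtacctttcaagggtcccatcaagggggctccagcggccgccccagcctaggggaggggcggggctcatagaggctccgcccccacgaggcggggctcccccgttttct
Atg4b: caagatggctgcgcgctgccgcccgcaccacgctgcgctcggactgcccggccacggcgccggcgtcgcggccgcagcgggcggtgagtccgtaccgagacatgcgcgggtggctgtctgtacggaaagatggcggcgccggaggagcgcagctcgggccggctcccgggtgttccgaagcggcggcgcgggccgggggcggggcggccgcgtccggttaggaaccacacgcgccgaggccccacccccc
Wipi2: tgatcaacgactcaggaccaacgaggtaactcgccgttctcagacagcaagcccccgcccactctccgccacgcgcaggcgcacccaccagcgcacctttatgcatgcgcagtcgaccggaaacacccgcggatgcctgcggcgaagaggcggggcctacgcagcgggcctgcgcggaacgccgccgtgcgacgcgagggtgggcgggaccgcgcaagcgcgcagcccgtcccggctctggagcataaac
Gabarapl2: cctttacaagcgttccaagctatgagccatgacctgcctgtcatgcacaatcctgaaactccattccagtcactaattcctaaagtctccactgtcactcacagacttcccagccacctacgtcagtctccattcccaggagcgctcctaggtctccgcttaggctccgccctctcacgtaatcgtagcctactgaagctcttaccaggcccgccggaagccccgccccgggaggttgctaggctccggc
Ctsd: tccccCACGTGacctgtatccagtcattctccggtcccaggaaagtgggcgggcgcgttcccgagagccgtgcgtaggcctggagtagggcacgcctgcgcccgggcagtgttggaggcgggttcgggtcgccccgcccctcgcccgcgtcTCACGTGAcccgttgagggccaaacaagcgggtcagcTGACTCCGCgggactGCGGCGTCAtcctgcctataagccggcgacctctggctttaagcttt
Mcoln1: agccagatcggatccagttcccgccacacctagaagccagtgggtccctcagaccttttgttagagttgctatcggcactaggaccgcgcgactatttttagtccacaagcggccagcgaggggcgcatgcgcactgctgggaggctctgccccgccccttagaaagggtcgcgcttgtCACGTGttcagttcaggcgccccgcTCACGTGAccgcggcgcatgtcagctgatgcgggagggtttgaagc

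The motifs were TGACNNNGC, the core of the antioxidant response element that Nrf2 and small Maf proteins bind, and the CLEAR-type palindrome TCACGTGA, the kind of site that TFEB binds. Its inner E-box core CACGTG was searched as well, chosen after the first search was seen. Both strands were read, and each TCACGTGA contains a CACGTG. TGACNNNGC was in 12.4% of 32851 mouse windows and in those of 4 of the 25 matched genes, Atg13, Ctsd, Hexa and Map1lc3b. TCACGTGA was in 0.974% of all windows and in those of 3 genes, Atg3, Ctsd and Mcoln1. CACGTG was in 7.15% of all windows and in those of 8 genes, Atg3, Atg5, Atg7, Atg14, Ctsd, Ctsl, Lamp1 and Mcoln1. Lamp1, a major glycoprotein of the lysosomal membrane, held 4 copies, at 61, 45, 28 and 15 bases before its start. The windows of Sqstm1, Atg4b, Wipi2 and Gabarapl2 held none of the 3 motifs, which says only that these letters are not within these bases.

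The labels were checked on the targeted genes. Nfe2l2, which encodes Nrf2, read between 12.48 and 12.96 in WT DMSO and between 3.27 and 3.52 in KO DMSO, a difference of -9.32 ± 0.14. Keap1 read between 10.94 and 11.16 in siControl, between 8.93 and 9.13 with siKeap1-1 and between 9.15 and 9.47 with siKeap1-2. Its transcript was thus 4.07-fold lower with siKeap1-1 and 3.56-fold lower with siKeap1-2. The Nfe2l2 transcript also fell, at -0.48 ± 0.05 with siKeap1-1 (adjusted p = 0.000111 by limma) and -0.32 ± 0.05 with siKeap1-2 (adjusted p = 0.00238). The 8 macrophage markers averaged between 11.9 and 13.0 on every array, and B cell, T and NK cell, stromal, mast cell and erythroid markers averaged between 3.58 and 5.83. Neutrophil markers averaged between 5.22 and 7.10, dendritic cell markers between 6.44 and 7.80 and osteoclast markers between 7.88 and 9.11. In RNA from whole cultures, fewer cells of a type and less RNA per cell cannot be told apart. Array 2 of WT RA839 stood apart. Its Gapdh probe sets for the 3′ and 5′ ends of the transcript differed by 3.74, against 0.77 to 1.00 on the other compound arrays, and those of Actb by 3.10, against 1.28 to 2.04. The results on the 32 genes that use this group were therefore also computed without that array, and without the arrays numbered 2 of both WT groups.

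No gene of the list passed the test with RA839. In WT macrophages 0 of 20 autophagy genes and 0 of 12 lysosome genes passed the threshold, where 0.66% of all genes did (0.572% higher and 0.0879% lower). With the replicate number as a block 0 of 32 passed, beside 2.67% of all genes. In 0 of 32 did the groups not overlap, beside 5.79% of all genes. The 32 differences ran from -0.11 to 0.22 with a median of 0.01, beside -0.01 over all genes. Only Ulk1 had an unadjusted p under 0.05. The 95% intervals of the 32 genes together reached from -0.37 to 0.54 on the log2 scale. In KO macrophages 0 of 32 passed, beside 0% of all genes with or without the block by limma (321 genes had an unadjusted p under 0.05), and the differences ran from -0.05 to 0.09. Groups without overlap numbered 0 of 32, beside 2.11% of all genes. The difference of the response between WT and KO called 0 of 32 members, beside 0.115% of all genes (0.363% with the block) and 679 genes with an unadjusted p under 0.05, with member values from -0.12 to 0.24.

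The largest mean differences with RA839 in WT were those of Sqstm1 and Ulk1. Sqstm1 read 13.22, 13.24, 13.13 and 13.00 in WT DMSO and 13.54, 13.08, 13.42 and 13.42 in WT RA839. Of the RA839 arrays 3 lay above every DMSO array and array 2 did not. The difference was 0.22 ± 0.15, with a 95% interval from -0.10 to 0.53 and an adjusted p of 0.638. In KO the same comparison gave -0.02 on the log2 scale, and the WT response minus the KO response was 0.24 with an adjusted p of 1. Sqstm1 was read by another probe set at 0.64 ± 0.29 with RA839 in WT, which did not pass either (adjusted p = 0.482 over 34945 probe sets). Ulk1, the kinase that starts autophagy, read 10.19, 10.00, 10.39 and 10.22 in WT DMSO and 10.41, 10.31, 10.53 and 10.43 in WT RA839. Same-numbered arrays were higher with RA839 in all 4 pairs, and the groups overlapped. Its difference was 0.22 ± 0.09, with an adjusted p of 0.418 and of 0.0944 with the replicate number as a block. Map1lc3b, which encodes the most used marker of autophagosomes, differed by -0.01 ± 0.08 and Tfeb by 0.03 ± 0.12. Without array 2 of WT RA839, still 0 of 32 passed, the differences ran from -0.19 to 0.32, and the widest interval reached 0.64. Without the arrays numbered 2 of both WT groups they ran from -0.21 to 0.35, again with 0 calls.

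**Figure D1:**
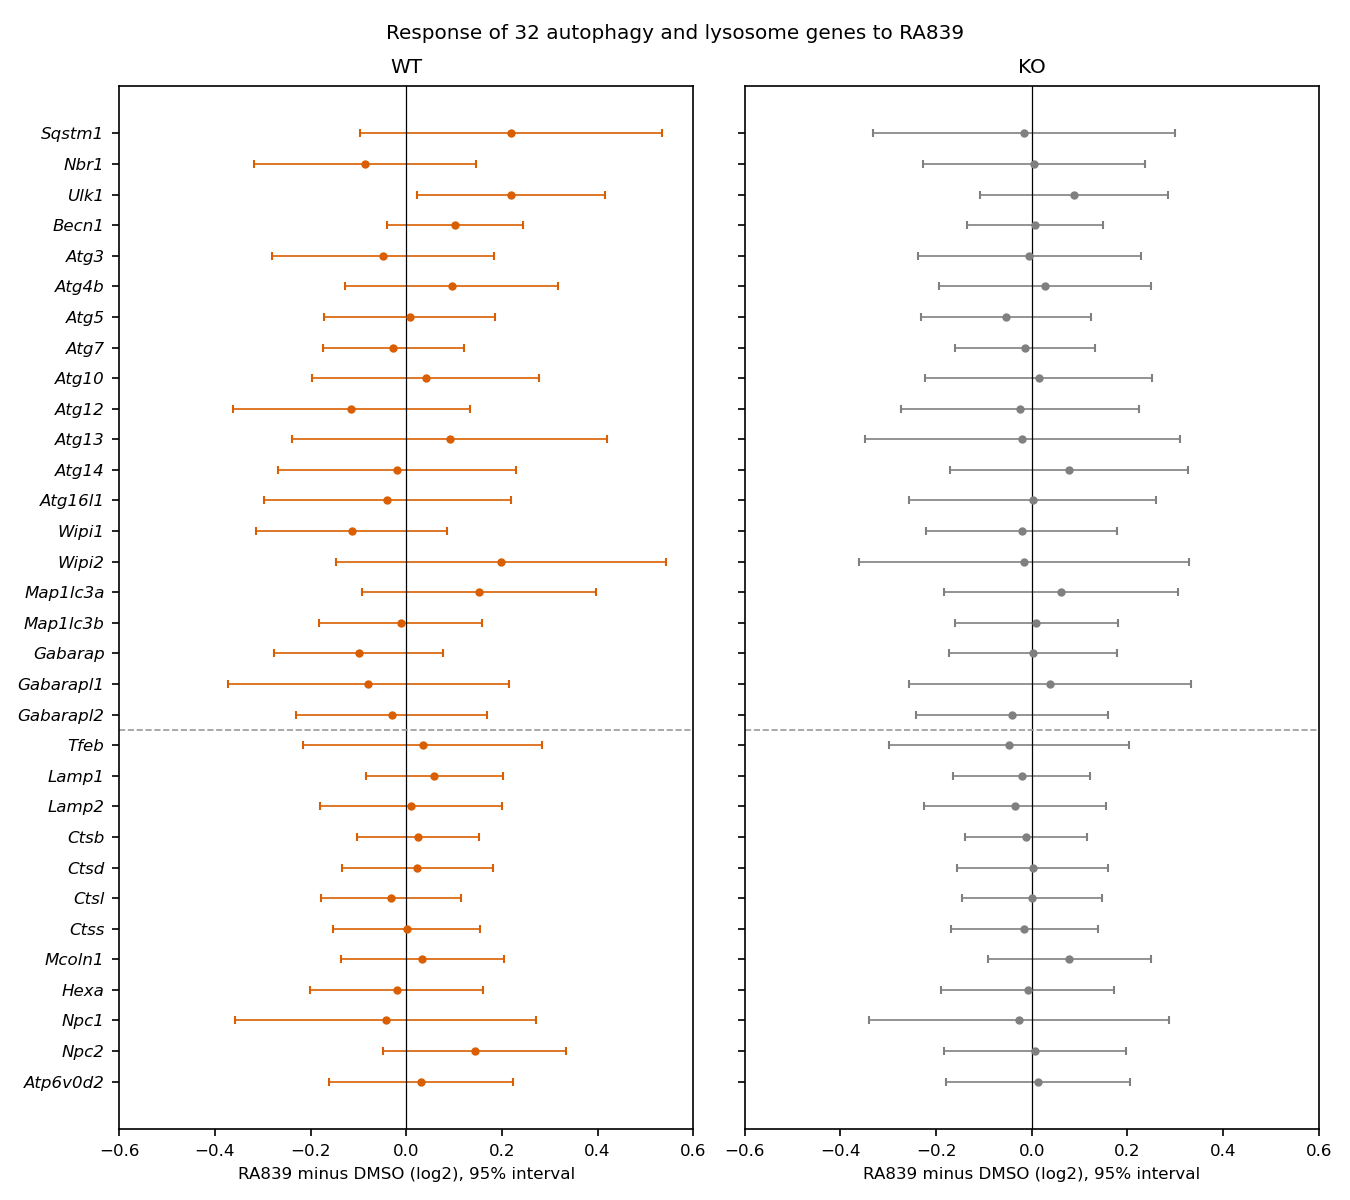
Each row is 1 of the 32 genes, with the 20 autophagy genes above the dashed line and the 12 lysosome genes below it. The x axis is the difference between RA839 and DMSO in log2 units, points are limma estimates from 4 arrays a group and bars their 95% intervals, for WT on the left and KO on the right. All points lie between -0.11 and 0.22 in WT and between -0.05 and 0.09 in KO.

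With Keap1 lowered by siRNA, several autophagy genes rose, among them Atg4b, Wipi2 and Sqstm1. With siKeap1-1, 8 of 32 genes passed (25%), 6 higher and 2 lower, where 15.1% of all genes passed, 8.67% higher and 6.39% lower. With siKeap1-2, 9 of 32 passed (28.1%), 7 higher and 2 lower, where 11.2% of all genes passed, 6.32% higher and 4.89% lower. Among the brighter genes alone the shares were 37.5% of members beside 32.6% of genes for siKeap1-1, and 34.4% beside 25.6% for siKeap1-2. Most rises were in autophagy genes: 6 of 20 rose and 1 fell with each siRNA. Of the 12 lysosome genes, 0 rose and 1 fell with siKeap1-1, and 1 rose and 1 fell with siKeap1-2. Sqstm1, Atg4b, Wipi2, Gabarapl1 and Gabarapl2 rose with each. Both comparisons use the same 4 siControl arrays, so passing in both is not independent evidence. Over all genes 1143 of the 3614 called with either siRNA were called with both in 1 direction, and of the 12 members called with either, 5 were. Groups did not overlap for 13 of 32 members with siKeap1-1, 8 higher and 5 lower, beside 20% of all genes, and for 18 with siKeap1-2, 10 higher and 8 lower, beside 20.6%. The median over the members was 0.02 with each siRNA, beside 0.02 and 0.03 over all genes. The split between higher and lower depends on the scaling: with each array centred on its median, siKeap1-1 gave 3 higher and 6 lower members and siKeap1-2 gave 5 and 3, while the share of higher genes among all calls went from 57.6% to 37.7% and from 56.4% to 41.7%. No called member changed sign under that centring. With the replicate number as a block the counts were 7 higher and 4 lower for siKeap1-1, with Wipi1 higher and Ulk1 and Lamp2 lower added, beside 24% of all genes. For siKeap1-2 they were 8 and 3, with Npc1 higher and Lamp2 lower added, beside 20.4%. The count for siKeap1-1 depended on single arrays: it was 4 without siKeap1-1 array 1, siControl array 2 or siControl array 4, and 5 without siControl array 1.

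**Figure D2:**
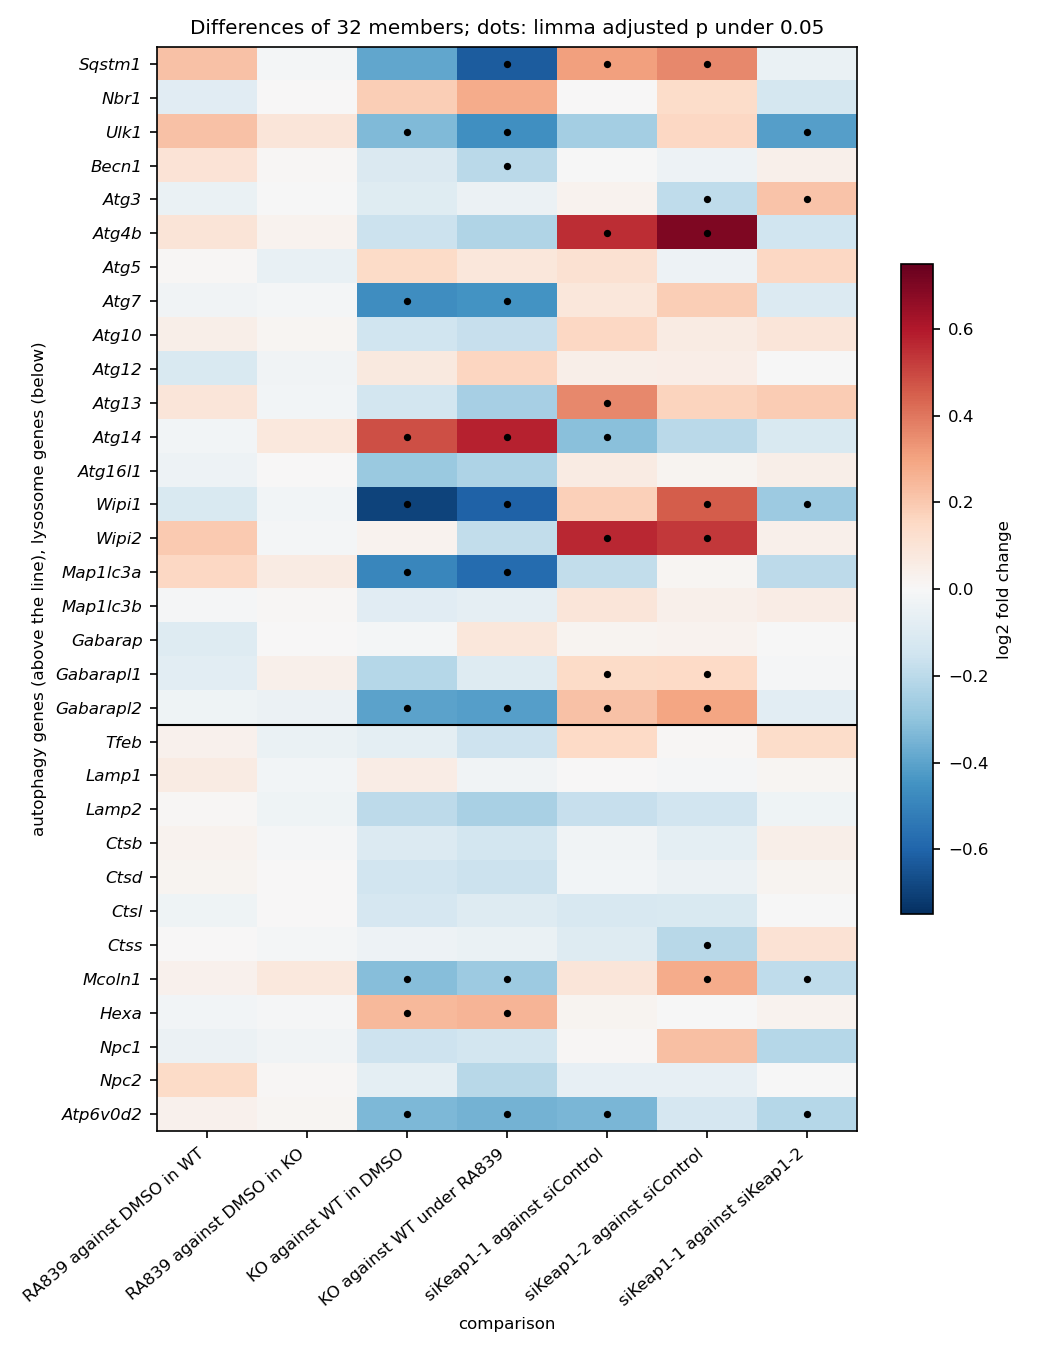
Colours show the log2 difference of each gene (rows; autophagy genes above the line, lysosome genes below) in 7 comparisons (columns), red for higher and blue for lower in the group named before "against". Dots mark a limma adjusted p under 0.05 over 18193 genes. The columns for RA839 against DMSO hold 0 dots, the siKeap1-1 and siKeap1-2 columns hold 8 and 9, the KO columns hold 9 and 11, and the column between the siRNAs holds 5.

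Atg4b, the protease that trims LC3 and GABARAP proteins for conjugation and frees them again, had the largest rise with siKeap1-2. It read 10.34, 10.24, 10.34 and 10.05 in siControl, 10.81, 10.74, 11.01 and 10.63 with siKeap1-1, and 10.92, 11.00, 11.03 and 10.84 with siKeap1-2. Every Keap1 siRNA array was above every control array. The rise was 0.56 ± 0.09 with siKeap1-1 (1.47-fold, adjusted p = 0.00138) and 0.70 ± 0.09 with siKeap1-2 (1.63-fold, adjusted p = 0.000353). It kept its call with each array left out and under every other setting tried. Atg4b also rose on another probe set, by 0.50 and 0.51. The siRNAs did not differ for it beyond their error (-0.15, 95% interval from -0.34 to 0.05). With RA839 in WT Atg4b differed by 0.10 ± 0.10.

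Sqstm1 read 12.88, 12.88, 12.91 and 12.95 in siControl, 13.13, 13.18, 13.24 and 13.31 with siKeap1-1, and 13.19, 13.25, 13.30 and 13.33 with siKeap1-2. Again all 8 Keap1 siRNA arrays were above the 4 control arrays. It rose by 0.31 (1.24-fold, adjusted p = 0.0024) and by 0.36 (1.28-fold, adjusted p = 0.00118), and both calls held with each array left out. The calls rest on this probe set: the other gave 0.29 and 0.23 without passing, and with the mean of the probe sets the adjusted p was 0.142 and 0.174. With median centring the rise with siKeap1-1 was 0.24 (adjusted p = 0.0542). Nbr1, the other cargo receptor of the list, differed by 0.01 ± 0.05 and 0.14 ± 0.05, with adjusted p of 0.968 and 0.124.

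Wipi2 and Wipi1 encode proteins that bind the lipid made at the growing autophagosome. Wipi2 read 8.70, 8.64, 8.71 and 8.54 in siControl, 9.27, 9.13, 9.57 and 8.88 with siKeap1-1, and 9.34, 9.27, 9.19 and 8.91 with siKeap1-2. The lowest Keap1 siRNA array was still above the highest control array. It rose by 0.57 ± 0.13 (adjusted p = 0.0126) and 0.53 ± 0.13 (adjusted p = 0.0232). The call with siKeap1-2 ended when any of 5 arrays was left out (siKeap1-2 arrays 1, 2 and 3, siControl arrays 2 and 4), with an adjusted p up to 0.0697, and the second probe set of Wipi2 gave 0.16 and 0.15 without passing. With the mean of the probe sets of Wipi2 the call with siKeap1-2 was lost too (adjusted p = 0.06). Wipi1 read 8.94, 8.91, 8.97 and 8.96 in siControl, 9.19, 9.11, 9.18 and 9.01 with siKeap1-1, and 9.40, 9.45, 9.47 and 9.26 with siKeap1-2. The 3 groups did not overlap, in the order siControl, siKeap1-1, siKeap1-2. Wipi1 rose by 0.45 ± 0.06 with siKeap1-2 (adjusted p = 0.000514); with siKeap1-1 the difference was 0.18 ± 0.06 (adjusted p = 0.0701, 0.0314 with the replicate block and 0.0386 without siKeap1-1 array 4). On another probe set of Wipi1 the difference with siKeap1-2 did not pass (0.33, adjusted p = 0.202), and that with siKeap1-1 did (0.54). It differed between the siRNAs, at -0.27 ± 0.06 for siKeap1-1 against siKeap1-2 (adjusted p = 0.0179). That difference rests on the probe set used: another probe set of Wipi1 gave 0.22 without passing, and the mean over its probe sets was -0.01. It also ended without siKeap1-2 array 2 or 3.

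The LC3 and GABARAP proteins are the ubiquitin-like tags of the autophagosome. Gabarapl2 read 10.91, 10.85, 11.03 and 10.90 in siControl, 11.15, 11.18, 11.00 and 11.25 with siKeap1-1, and 11.14, 11.27, 11.23 and 11.25 with siKeap1-2. Array 3 of siKeap1-1 lay within the control range and the other 7 lay above it. Gabarapl2 rose by 0.22 ± 0.06 (adjusted p = 0.0364) and 0.30 ± 0.06 (adjusted p = 0.0104). With the mean of the probe sets of Gabarapl2 both calls were lost (adjusted p = 0.0529 and 0.0704 by limma). With quantile normalization that with siKeap1-1 was lost (adjusted p = 0.056). Gabarapl1 read 13.60, 13.60, 13.65 and 13.58 in siControl, 13.73, 13.74, 13.72 and 13.80 with siKeap1-1, and 13.72, 13.78, 13.77 and 13.76 with siKeap1-2. Its groups did not overlap, but the rises were small, 0.14 ± 0.04 and 0.15 ± 0.04, with adjusted p of 0.0482 and 0.047. Those calls ended when any of 7 of 8 arrays was left out for siKeap1-1 (all but its array 3) and any of 8 for siKeap1-2, with adjusted p up to 0.114 and 0.122. The other probe set of Gabarapl1 rose by 0.21 and 0.20 and passed with both siRNAs. With median centring the differences of Gabarapl1 were 0.072 (adjusted p = 0.52) and 0.10 (adjusted p = 0.391). The Gabarapl2 call with siKeap1-1 ended without array 1, 2 or 4 of either group, with an adjusted p up to 0.108, and with median centring the differences of Gabarapl2 were 0.15 (adjusted p = 0.282) and 0.25 (adjusted p = 0.0861). Map1lc3b differed by 0.09 ± 0.04 and 0.04 ± 0.04, Gabarap by 0.02 ± 0.04 and 0.03 ± 0.04, and Map1lc3a by -0.18 ± 0.08 and 0.02 ± 0.08, none of which passed.

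**Figure D3:**
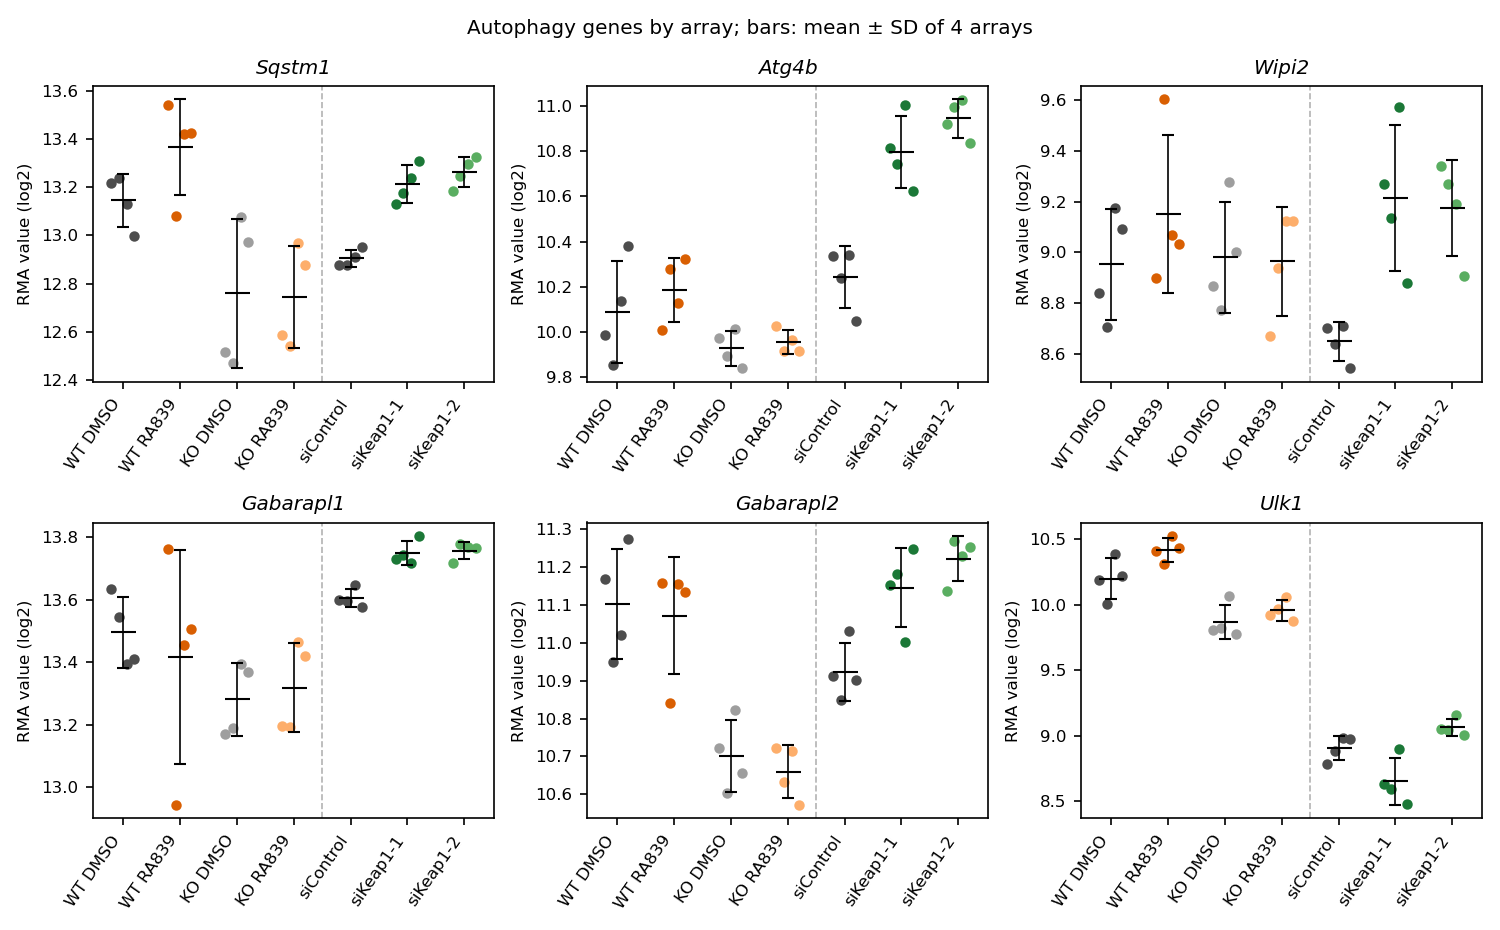
Points are single arrays of the 7 groups for the 5 genes that rose with both Keap1 siRNAs and for Ulk1, with RMA values in log2 units on the y axis; bars are the mean ± SD of 4 arrays. The dashed line parts the compound from the siRNA experiment, which were fitted apart. For Atg4b, Sqstm1, Wipi2 and Gabarapl1 all 8 Keap1 siRNA arrays lie above the 4 siControl arrays.

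The start complexes showed changes with siKeap1-1. Atg13, which holds the ULK1 complex together, read 9.56, 9.49, 9.54 and 9.44 in siControl, 9.93, 9.83, 10.10 and 9.62 with siKeap1-1, and 9.70, 9.81, 9.67 and 9.53 with siKeap1-2. It rose by 0.36 ± 0.09 with siKeap1-1 (adjusted p = 0.0215) and differed by 0.17 ± 0.09 with siKeap1-2 (adjusted p = 0.296). The siRNAs themselves differed by 0.19 ± 0.09 (adjusted p = 0.286), so a different effect of them on Atg13 was not shown. Its call ended without siKeap1-1 array 1, siControl array 2 or siControl array 4, with an adjusted p up to 0.0583, and with the mean of the probe sets of Atg13 (0.16, adjusted p = 0.246). Atg14, the subunit that sends the BECN1 lipid kinase complex to autophagy, read 9.78, 9.70, 9.75 and 9.77 in siControl, 9.44, 9.57, 9.16 and 9.58 with siKeap1-1, and 9.51, 9.61, 9.47 and 9.61 with siKeap1-2. All 8 Keap1 siRNA arrays lay below the control arrays. Atg14 fell by 0.31 on the log2 scale with siKeap1-1 (adjusted p = 0.0273), and its difference with siKeap1-2 was -0.20 ± 0.08 (adjusted p = 0.166). That call ended without siKeap1-1 array 1 or any 1 of the 4 siControl arrays, with an adjusted p up to 0.0632. Becn1 differed by 0.00 and -0.04.

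Ulk1 read 8.78, 8.88, 8.98 and 8.98 in siControl, 8.63, 8.59, 8.90 and 8.48 with siKeap1-1, and 9.05, 9.04, 9.16 and 9.01 with siKeap1-2. The siKeap1-2 arrays lay above all others, and siKeap1-1 arrays 1, 2 and 4 below all others. Against siControl the differences were -0.25 ± 0.09 (adjusted p = 0.0671, 0.0251 with the replicate block and 0.00635 without siKeap1-1 array 3) and 0.16 ± 0.09 (adjusted p = 0.288). The siRNAs differed from each other by -0.41 ± 0.09 (1.33-fold, adjusted p = 0.0118), the largest difference between them among the 32 genes, and it passed with each array left out. With the mean of the probe sets of Ulk1 it did not pass (adjusted p = 0.105). Atg3, the enzyme that hands LC3 to its lipid, passed with siKeap1-2. It read 11.57, 11.56, 11.58 and 11.58 in siControl, 11.56, 11.58, 11.62 and 11.62 with siKeap1-1, and 11.37, 11.35, 11.31 and 11.49 with siKeap1-2. All 4 siKeap1-2 arrays were below the other 8. Atg3 fell by 0.19 on the log2 scale with siKeap1-2 (adjusted p = 0.0275), and siKeap1-1 lay 0.22 ± 0.05 above siKeap1-2 (adjusted p = 0.0206, lost without siKeap1-1 array 4 or siKeap1-2 array 1, 2 or 3). The fall ended its call in 7 of 8 leave-one-out fits (all but that without siKeap1-2 array 4), with an adjusted p up to 0.0874, while a dimmer probe set of Atg3 fell by 0.72 and passed. Of the remaining conjugation genes, Atg5, Atg7, Atg10, Atg12 and Atg16l1 differed by at most 0.19 with either siRNA and did not pass.

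Among the lysosome genes, Mcoln1, the calcium channel of the lysosomal membrane, read 12.05, 12.07, 12.14 and 12.02 in siControl, 12.19, 12.15, 12.18 and 12.12 with siKeap1-1, and 12.27, 12.33, 12.41 and 12.40 with siKeap1-2. The siKeap1-2 arrays were the highest, and siKeap1-1 overlapped the control. Mcoln1 rose by 0.28 ± 0.05 with siKeap1-2 (adjusted p = 0.00379), also on its second probe set (0.29), differed by 0.09 ± 0.05 with siKeap1-1, and differed between the siRNAs by -0.19 ± 0.05 (adjusted p = 0.0413). That difference was lost without array 1, 2 or 4 of siKeap1-1 or array 2, 3 or 4 of siKeap1-2, and on a dimmer probe set of Mcoln1 the difference with siKeap1-2 did not pass (0.22, adjusted p = 0.0793). Ctss, an endosomal cysteine protease of antigen processing, read 14.94, 14.99, 14.95 and 15.02 in siControl, 14.85, 14.91, 14.86 and 14.90 with siKeap1-1, and 14.82, 14.72, 14.74 and 14.78 with siKeap1-2. The 3 groups did not overlap. Ctss fell by 0.21 on the log2 scale with siKeap1-2 (adjusted p = 0.0113) and its difference with siKeap1-1 was -0.10 ± 0.05 (adjusted p = 0.192). The highest value on any siRNA array was 15.24.

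Atp6v0d2 encodes a V-ATPase subunit found in macrophages and osteoclasts. It read 13.98, 14.06, 14.01 and 14.04 in siControl, 13.64, 13.71, 13.76 and 13.62 with siKeap1-1, and 13.92, 13.91, 13.91 and 13.85 with siKeap1-2. The siKeap1-1 arrays were the lowest, and the siKeap1-2 arrays lay between them and the control. Atp6v0d2 fell by 0.34 on the log2 scale with siKeap1-1 (1.27-fold, adjusted p = 0.000578), also on its other probe set (-0.22), and its difference with siKeap1-2 was -0.13 ± 0.05 (adjusted p = 0.126). The siRNAs differed by -0.21 ± 0.05 (adjusted p = 0.0187), a call lost without siKeap1-1 array 4 or siKeap1-2 array 1, 2 or 3. Lamp2, a membrane glycoprotein needed for fusion with autophagosomes, differed by -0.17 ± 0.06 (adjusted p = 0.097) and -0.14 ± 0.06 (adjusted p = 0.192), with all 8 Keap1 siRNA arrays below the control. It passed with the replicate block in both (adjusted p = 0.0165 and 0.0416). Tfeb differed by 0.15 ± 0.08 and 0.01 ± 0.08 and did not pass. Lamp1, Ctsd, Hexa and Npc2 stayed within 0.07 of the control. Ctsb averaged 14.96 in siControl, 14.93 with siKeap1-1 and 14.89 with siKeap1-2 and did not pass, though all siKeap1-2 arrays lay below the control. Ctsl differed by -0.12 and -0.11 without passing. Another probe set of Ctsl gave -0.67 and -0.86 and passed with both siRNAs. In siControl, Lamp1, Ctsb, Ctsd, Ctsl, Ctss, Hexa and Npc2 averaged between 14.23 and 14.98, near the highest value on any siRNA array, 15.24. Whether differences are understated at such high values was not tested.

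Set against each other, siKeap1-1 and siKeap1-2 differed in 5 of 32 members (15.6%), 1 higher and 4 lower with siKeap1-1, beside 7.45% of all genes (3.57% higher and 3.88% lower). Their groups did not overlap for 9 of 32, beside 13.2% of all genes. The higher gene was Atg3 and the lower were Ulk1, Wipi1, Atp6v0d2 and Mcoln1. Among the brighter genes 18.3% of genes and 18.8% of members passed. The count depended on the arrays: it was 1 without siKeap1-2 array 2 or array 3, 2 without siKeap1-1 array 4 and 3 without siKeap1-2 array 1. Other values among the 5 highest and 5 lowest that did not pass were Atg13 at 0.19, Atg5 at 0.16, Tfeb at 0.14, Ctss at 0.11, Npc1 at -0.22 and Map1lc3a at -0.20. With the replicate block Atg5 (adjusted p = 0.0442) and Npc1 (adjusted p = 0.0319) passed too, beside 14.6% of all genes. With median centring 3 passed, and with only these 2 groups in the fit 1 passed. Sqstm1 differed by -0.05 and Map1lc3b by 0.05.

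Between KO and WT macrophages, Wipi1, Map1lc3a, Atg7 and Gabarapl2 were among the genes that fell, and Atg14 and Hexa rose. The share of members called was close to that of all genes. In DMSO, 9 of 32 genes passed between KO and WT (28.1%), 2 higher and 7 lower, where 25.1% of all genes passed, 11.2% higher and 13.8% lower. Of the 20 autophagy genes 1 rose and 5 fell in KO, and of the 12 lysosome genes 1 rose and 2 fell. The median difference over the members was -0.13, beside -0.02 over all genes. Of the 32 members 25 were below 0 and 7 above, while 47.5% of all genes were above 0. The groups did not overlap for 3 genes that were higher and 12 that were lower, where 29.5% of all genes had no overlap in either direction. With the replicate block again 9 passed, beside 24.8% of all genes. With RA839 in both genotypes 11 of 32 passed, 2 higher and 9 lower, where 30.4% of all genes passed, 14.6% higher and 15.8% lower. There the groups did not overlap for 18 of 32, beside 30.9% of all genes. Under RA839 26 of 32 members were below 0 and 6 above, while 48.9% of all genes were above 0. The 11 calls under RA839 hold all 9 of the DMSO calls, in the same direction, together with Sqstm1 and Becn1. With the replicate block Lamp2 (-0.24, adjusted p = 0.0423) was added to the lower genes under RA839, beside 30.1% of all genes. The shares of members were 28.1% beside 30.8% of the brighter genes in DMSO, and 43.8% beside 39.3% under RA839.

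Wipi1 had the largest genotype difference of the list in DMSO. It read 9.39, 9.38, 9.43 and 9.63 in WT DMSO, 9.25, 9.19, 9.46 and 9.47 in WT RA839, 8.92, 8.74, 8.66 and 8.72 in KO DMSO, and 8.88, 8.66, 8.65 and 8.77 in KO RA839. Every KO array was below every WT array. Wipi1 fell by 0.70 on the log2 scale in DMSO (1.62-fold, adjusted p = 9.31e-05) and by 0.60 under RA839 (adjusted p = 0.000219). Other probe sets of Wipi1 fell in DMSO by 0.84, 0.65 and 0.63. Atg7, the enzyme that activates both conjugation pathways, read 10.62, 10.54, 10.67 and 10.67 in WT DMSO, 10.54, 10.67, 10.58 and 10.60 in WT RA839, 10.17, 10.03, 10.21 and 10.23 in KO DMSO, and 10.16, 10.14, 10.09 and 10.20 in KO RA839. Here too the genotypes did not overlap. Atg7 fell by 0.46 (1.38-fold, adjusted p = 0.000207) in DMSO and by 0.45 (adjusted p = 0.000189) under RA839, all on the log2 scale. With the mean of the probe sets of Atg7 the call under RA839 was lost (-0.14, adjusted p = 0.167).

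Map1lc3a, an LC3 gene, read 12.01, 11.91, 12.10 and 12.17 in WT DMSO, 12.05, 12.52, 12.04 and 12.20 in WT RA839, 11.71, 11.65, 11.48 and 11.41 in KO DMSO, and 11.64, 11.81, 11.47 and 11.57 in KO RA839. The KO arrays were all lower, and the highest WT value was that of array 2 of WT RA839. It fell by 0.49 on the log2 scale in DMSO (1.40-fold, adjusted p = 0.00588) and by 0.58 under RA839 (adjusted p = 0.00148, and 0.135 on its other probe set). Gabarapl2 read 11.17, 10.95, 11.02 and 11.27 in WT DMSO, 11.16, 10.84, 11.15 and 11.13 in WT RA839, 10.72, 10.60, 10.82 and 10.66 in KO DMSO, and 10.72, 10.63, 10.71 and 10.57 in KO RA839. Within each treatment the genotypes did not overlap. It fell by 0.40 on the log2 scale in DMSO (1.32-fold, adjusted p = 0.00585) and by 0.41 under RA839 (adjusted p = 0.00404). Gabarapl1 differed by -0.21 and -0.10 without passing, but its other probe set passed at -0.45 and -0.46. Map1lc3b differed by -0.09 ± 0.08 and -0.07 ± 0.08. Without array 2 of WT RA839, on which Map1lc3b was the lowest of its group, it fell under RA839 (adjusted p = 0.0443), and other probe sets of Map1lc3b passed under RA839 at -0.29 and -0.32.

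Atg14 went the other way. It read 9.41, 9.40, 9.13 and 9.04 in WT DMSO, 9.43, 9.14, 9.14 and 9.19 in WT RA839, 9.61, 9.65, 9.85 and 9.80 in KO DMSO, and 9.59, 9.69, 10.01 and 9.93 in KO RA839. All KO arrays were above all WT arrays. Atg14 rose by 0.48 ± 0.12 (1.40-fold, adjusted p = 0.00722) in DMSO and by 0.58 ± 0.12 (adjusted p = 0.00172) under RA839. The other gene that rose in KO was Hexa, a subunit of the enzyme that breaks down GM2 ganglioside, at 0.24 ± 0.08 (adjusted p = 0.046) and 0.26 ± 0.08 (adjusted p = 0.0323). Hexa kept its DMSO call in only 1 of 8 leave-one-out fits, that without KO DMSO array 3, with an adjusted p up to 0.127, and its call under RA839 ended without KO array 1, KO array 2 or WT array 2. Nbr1 (0.19 and 0.28), Atg5 (0.15 and 0.09), Atg12 (0.07 and 0.16), Lamp1 (0.05 and -0.03) and Gabarap (-0.02 and 0.09) did not pass.

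Sqstm1 read 12.52, 12.47, 13.08 and 12.97 in KO DMSO and 12.59, 12.54, 12.97 and 12.88 in KO RA839, beside the WT values given with RA839. KO arrays 1 and 2 were lower than KO arrays 3 and 4 with either treatment. In DMSO the difference from WT was -0.39 and did not pass (adjusted p = 0.0686), and without KO DMSO array 3 it was -0.49 (adjusted p = 0.0297). Under RA839 Sqstm1 fell by 0.62 on the log2 scale (1.54-fold, adjusted p = 0.00525), in every leave-one-out fit and on its other probe set (-0.80). Ulk1 fell by 0.33 on the log2 scale in DMSO (adjusted p = 0.016) and by 0.46 under RA839 (adjusted p = 0.00161). Its call in DMSO ended without KO array 4 or WT array 3 (adjusted p up to 0.0556), and both ended with the mean of the probe sets of Ulk1 (adjusted p = 0.119 and 0.138). Becn1, the core of the lipid kinase complex, fell by 0.20 under RA839 (adjusted p = 0.0307), a call lost without any of 4 arrays (KO arrays 2, 3 and 4, WT array 4), while another probe set gave 0.10. In DMSO Becn1 differed by -0.11 (adjusted p = 0.254).

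Of the lysosome genes, Mcoln1 fell by 0.32 on the log2 scale in DMSO (1.25-fold, adjusted p = 0.00913) and by 0.27 under RA839 (adjusted p = 0.018, 0.0594 without KO array 2 and 0.0572 with median centring). A second probe set of Mcoln1 fell by 0.67 and 0.57, and another, dimmer probe set gave 0.22 and 0.094 without passing. Atp6v0d2 read 13.90, 13.91, 13.83 and 13.70 in WT DMSO, 13.91, 13.86, 13.88 and 13.81 in WT RA839, 13.44, 13.31, 13.64 and 13.60 in KO DMSO, and 13.45, 13.35, 13.65 and 13.59 in KO RA839. The genotypes did not overlap. It fell by 0.34 on the log2 scale in DMSO (adjusted p = 0.0131, and 0.0673 with median centring) and by 0.35 under RA839 (adjusted p = 0.00836). Its other probe set gave -0.14 and -0.14 without passing. The cathepsin genes Ctsb, Ctsd, Ctsl and Ctss differed by -0.04 to -0.14 in DMSO, Lamp1 by 0.05, Lamp2 by -0.20 and Tfeb by -0.08, and none passed. Under RA839 Tfeb differed by -0.16 (adjusted p = 0.338).

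**Figure D4:**
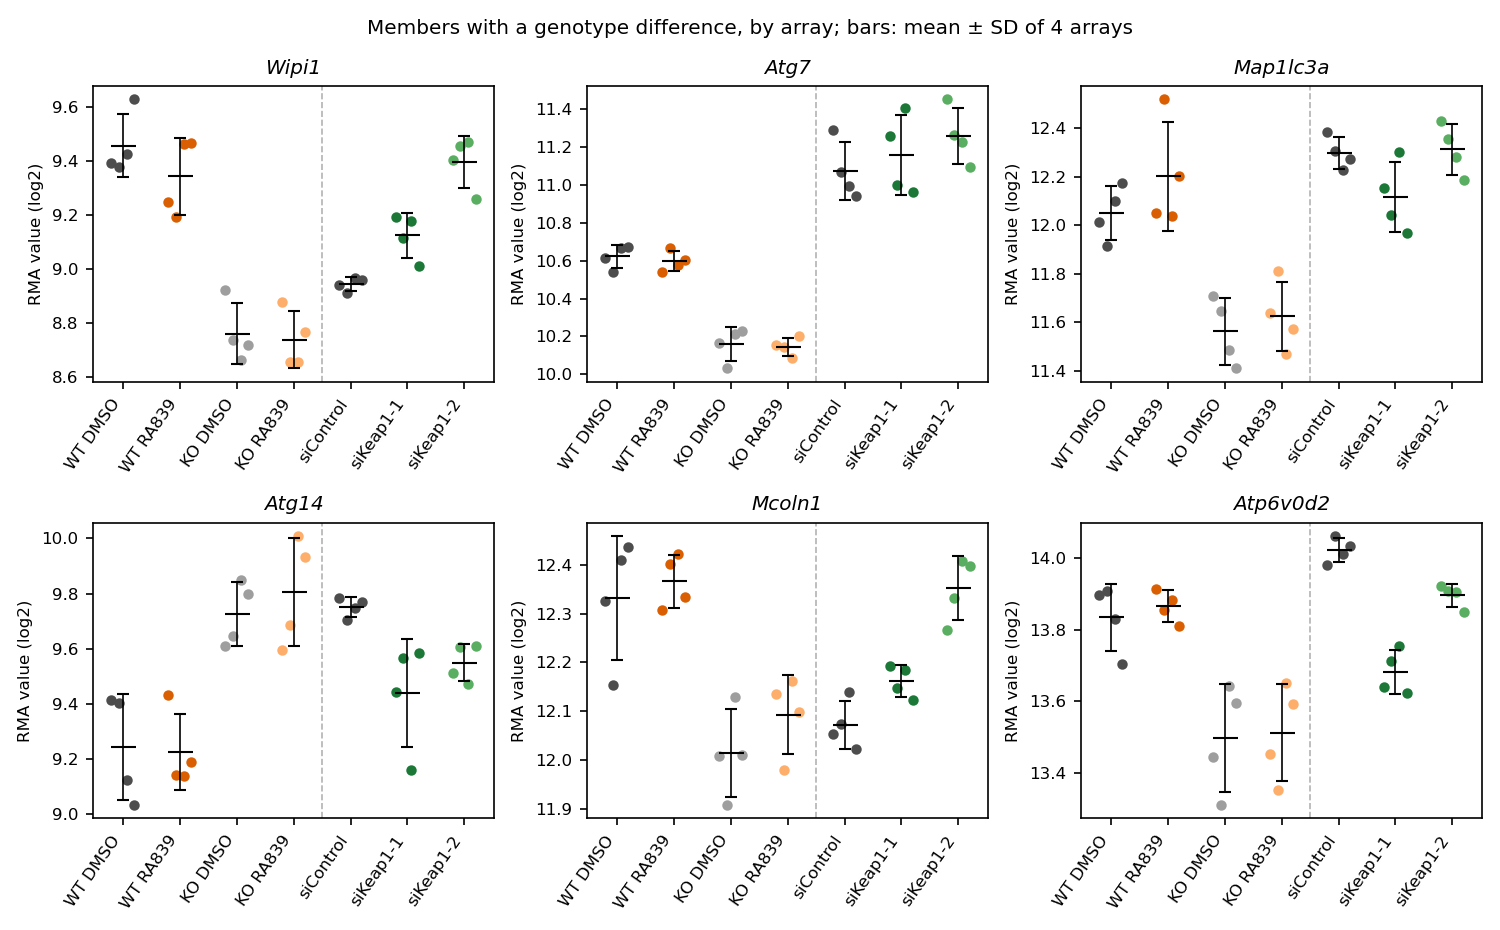
Points are single arrays of the 7 groups for 6 genes that passed between KO and WT in DMSO, with RMA values in log2 units on the y axis; bars are the mean ± SD of 4 arrays, and the dashed line parts the experiments. The KO arrays of Wipi1, Atg7, Map1lc3a and Atp6v0d2 all lie below the WT arrays, and those of Atg14 lie above them.

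The knockout and the siRNAs are meant to act on Nrf2 in opposite senses, and their comparisons share no arrays. Nrf2 protein was not measured, and the Nfe2l2 transcript fell with both siRNAs. Of the 9 members that passed between KO and WT in DMSO and the 12 that passed with either siRNA, 5 are in both. Of these 4 went opposite ways: Wipi1, Gabarapl2 and Mcoln1 fell in KO and rose with a Keap1 siRNA, and Atg14 rose in KO and fell with siKeap1-1. Atp6v0d2 fell in both. Over all genes 1202 were in both and 81.0% of them went opposite ways, so the members' split is close to that of genes at large. Sqstm1 fell in KO under RA839 and rose with both siRNAs. Atg4b and Wipi2, the largest rises with siRNA, did not pass between KO and WT (Atg4b -0.16 in DMSO and -0.23 under RA839, Wipi2 0.03 and -0.19, with another probe set of Wipi2 at 0.60 under RA839), and Atg7 and Map1lc3a, among the largest falls in KO, did not pass with siRNA. On the probe set used and without the replicate block, the 15 genes that passed in no comparison were Nbr1, Atg5, Atg10, Atg12, Atg16l1, Map1lc3b, Gabarap, Tfeb, Lamp1, Lamp2, Ctsb, Ctsd, Ctsl, Npc1 and Npc2. Of these, Ctsl and Map1lc3b passed on other probe sets, and Atg5, Lamp2 and Npc1 passed with the replicate block, in the comparisons named above.

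Other genes of the same pathways were counted from lists of 139 symbols, of which 129 were measured. With RA839, 0 of them passed in WT or in KO. Without array 2 of WT RA839, or without the arrays numbered 2 of both WT groups, that count stayed at 0 in WT. Between KO and WT in DMSO 3 were higher and 26 lower, 22.5% beside the 25.1% of all genes. Without the arrays numbered 2 of both WT groups 7 were higher and 36 lower. Calls over all genes rose in that fit too, from 4561 to 5523. With siKeap1-1 15 were higher and 18 lower, 25.6% beside 15.1% of all genes, and with the replicate block 23 and 22, 34.9% beside 24%. With siKeap1-2 10 were higher and 12 lower, 17.1% beside 11.2%, and with the block 14 and 16, 23.3% beside 20.4%. Among the brighter genes alone 32.6% passed with siKeap1-1, 25.6% with siKeap1-2 and 30.8% between KO and WT in DMSO. The listed genes were not counted among the brighter genes alone. Of 16 further V-ATPase subunits, 0 rose and 8 fell in KO in DMSO, among them Atp6v1h at -0.54, Atp6v0a1 at -0.52 and Atp6v1f at -0.39. That is 50%, beside 25.1% of all genes and 30.8% of the brighter genes. With siKeap1-1 3 of the 16 rose (Atp6v1h 0.42, Atp6v0b 0.26, Atp6v1e1 0.25) and 0 fell, 18.8% beside 15.1% of all genes. With siKeap1-2 Atp6v1h (0.29) and Atp6v0b (0.25) rose and Atp6v0a1 (-0.49) fell, 18.8% beside 11.2% of all genes. Of 36 further lysosomal hydrolases 6 fell and 0 rose in KO in DMSO (16.7%, a smaller share than over all genes). Sgsh, a heparan sulfate sulfatase, fell by 1.10 on the log2 scale there, and also with siKeap1-1 by 0.64 and with siKeap1-2 by 0.44. Lipa, the acid lipase, fell by 0.88 on the log2 scale in KO and differed by 0.14 and 0.17 with the siRNAs. Of the hydrolases 2 rose and 9 fell with siKeap1-1 (30.6%), and 3 rose and 7 fell with siKeap1-2 (27.8%). Those shares stand beside 15.1% and 11.2% of all genes, and 32.6% and 25.6% of the brighter genes.

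The largest genotype differences of these lists were in membrane and sorting proteins. Slc11a1, the metal transporter of the phagosome also known as Nramp1, fell by 2.31 on the log2 scale in KO in DMSO (adjusted p = 3.25e-08) and rose by 0.56 (adjusted p = 1.85e-05) and 0.48 (adjusted p = 6.07e-05) with the siRNAs. Sort1, a sorting receptor, fell by 1.59 in KO (adjusted p = 7.99e-05) and rose by 0.55 (adjusted p = 0.000441) and 0.78 (adjusted p = 4.84e-05). The highest calls in KO were Wdfy3 (0.61), Foxo1 (0.43) and Tmem175 (0.28), and the call of Tmem175 was lost with the replicate block (adjusted p = 0.0612). Of the 13 TFEB, mTORC1 and FOXO regulators, 1 rose and 2 fell with siKeap1-1 (23.1%, beside 15.1% of all genes). With siKeap1-2 0 rose and 1 fell (7.69%, beside 11.2%). Among them Rptor, the mTORC1 scaffold, fell with both siRNAs (-0.35 and -0.23), and Tfec, a relative of Tfeb, rose with siKeap1-1 (0.44). Of 16 genes of autophagosome fusion and late endosome traffic, Sort1 included, 5 rose and 2 fell with siKeap1-1 (43.8%, beside 15.1% of all genes). With siKeap1-2 1 of the 16 rose and 2 fell (18.8%, beside 11.2%). Of 17 further genes of autophagy start and membrane supply 2 rose and 2 fell with siKeap1-1 (23.5%, beside 15.1% of all genes). Wdr45 (0.35) and Atg9a (0.31) rose, and Ulk2 (-0.70) and Nrbf2 (-0.48) fell. With siKeap1-2 Wdr45 rose by 0.47 and Zfyve1 fell by 0.27 (11.8%, beside 11.2%). Among 8 receptors, Calcoco1 (-0.43) and Wdfy3 (-0.22) fell with siKeap1-1, and Bnip3 (0.36) and Pink1 (0.23) rose with siKeap1-2. That is 25% with each siRNA, beside 15.1% and 11.2% of all genes. Of 5 further conjugation genes 0 passed in any comparison, and with the replicate block Atg16l2 passed with both siRNAs (0.21, adjusted p = 0.029, and 0.19, adjusted p = 0.0477).

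Markers of cell state and of other cells moved in the same comparisons. The shares below stand beside 25.1% of all genes between KO and WT in DMSO and 30.4% under RA839. For siKeap1-1 and siKeap1-2 they stand beside 15.1% and 11.2% of all genes. Of 8 macrophage markers, Cd14 (1.83) and Fcgr1 (1.98) rose and Itgam (-1.04) fell in KO in DMSO (37.5%). With the siRNAs Cd14 (-0.58 and -0.91) and Fcgr1 (-0.72 and -1.06) fell, and with siKeap1-1 Mertk (-0.49) and Adgre1 (-0.17) fell too. That is 4 of 8 (50%) with siKeap1-1 and 25% with siKeap1-2. Of 6 dendritic cell markers, Flt3 (-0.52) and Ccr7 (-0.91) fell with siKeap1-1 (33.3%), and 0 passed with siKeap1-2. Of 5 stromal markers, Col1a2, Dcn and Lum fell in KO (60%), by 0.46, 0.59 and 0.38 on the log2 scale in DMSO and by 0.51, 0.59 and 0.37 under RA839. The stromal list averaged between 3.91 and 4.30 per array in KO DMSO and between 4.01 and 4.76 in WT DMSO. Of 9 markers of neutrophils and their precursors, 3 fell in KO in DMSO (33.3%), S100a8 (-0.97), Ltf (-1.03) and Ctsg (-0.78). Under RA839 only 1 of the 9 fell in KO (11.1%). S100a8 rose with the siRNAs (0.52 and 0.55), and Elane rose with siKeap1-1 (0.53), which is 22.2% with siKeap1-1 and 11.1% with siKeap1-2. The list averaged between 5.26 and 6.19 per array in KO DMSO and between 5.66 and 6.40 in WT DMSO. Of 7 osteoclast markers, a cell type that also uses Atp6v0d2, Mmp9 rose in KO (1.26) and fell with the siRNAs (-1.89 and -1.34), and Ctsk rose with siKeap1-2 (0.43). That is 14.3% in KO in DMSO, 14.3% with siKeap1-1 and 28.6% with siKeap1-2. The list averaged between 8.30 and 8.64 in KO DMSO and between 8.16 and 8.73 in WT DMSO. The part of these shifts in the results for the 32 genes was not tested.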

How the data were processed

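RNA was measured on 28 Affymetrix mouse arrays, 4 in each of 7 groups. The deposited values are log2 probe set summaries that the authors made with RMA, per the submitters' processing notes, which give no version. RMA shrinks differences of dim probe sets, so their fold changes can be understated. Values ran from 1.77 to 15.24, and array medians were 5.61 to 5.71 in the compound and 5.91 to 5.96 in the siRNA experiment, so the experiments were fitted apart and levels were not compared between them. The number of arrays limits the precision, and p-values measure only the spread between these samples.

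Of 45101 probe sets, 34945 named 1 gene and were used, and 932 named several genes and were left out. By gene ID, 34741 matched RefSeq GRCm38.p6 and 204 did not, with 0 symbols changed. Each of 18193 genes took its probe set of highest mean. Differences came from limma 3.58.1 under R 4.3.3, with group means as coefficients and two-sided moderated tests (lmFit, then eBayes without trend), and p-values were adjusted by Benjamini-Hochberg over all genes, with a threshold of 0.05. The script was tested on simulated data. No 2 arrays held identical values (0 pairs).

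The replicate number was checked as a pairing. Deviations of same-numbered arrays from their group means correlated at 0.27 to 0.46 within WT, 0.66 to 0.70 within KO and 0.12 to 0.66 among the siRNA groups, but at -0.29 to -0.01 between genotypes. The labels do not say what a number shares, so the pairing within genotype and within the siRNA experiment comes from these correlations. The fit with the number as a block was an alternative.

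Named are members past the threshold, the 5 highest and 5 lowest of each comparison with calls, and Sqstm1, Map1lc3b and Tfeb throughout. Of other pathway genes, those called with siRNA and the 3 highest and 3 lowest calls of KO against WT in DMSO could be named. Atp6v1f, Lipa and the marker genes lie outside that rule and are given as measured beside the results. The members and lists were chosen with earlier results of these data known. Alternatives were the replicate block, a trended robust prior, brighter genes only, the mean of a gene's probe sets, no probe sets that can match several transcripts, quantile normalization, median centring, only the groups compared, and each array left out.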

Additional observations from a re-analysis of the deposited data

Results flagged for a closer look

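Dixon's ratio is the gap between an array and the nearest other, divided by the range of the 4 arrays. Of 224 sets of 4 arrays (32 genes in 7 groups), 20 held an array whose ratio exceeded the 95% critical value. Chance gives about 1 in 20. Array 2 of WT RA839, the array with the large difference between the 3′ and 5′ ends of Gapdh and Actb, held 8 of them. On it Nbr1 read 12.42 (the others from 12.97 to 12.99), Map1lc3b 13.37 (13.71 to 13.74), Gabarapl2 10.84 (11.13 to 11.16), Ctss 14.65 (14.75 to 14.76) and Hexa 13.70 (13.94 to 13.99). It was high for Atg3 at 12.04 (11.82 to 11.86), Atg16l1 at 7.92 (7.27 to 7.37) and Npc2 at 14.78 (14.34 to 14.37). The part of the array's RNA in these values was not tested.

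Array 4 of siControl held 4, all high: Becn1 at 12.22 (the others from 11.95 to 11.99), Lamp1 at 14.79 (14.73 to 14.74), Ctsb at 14.98 (14.95 to 14.96) and Ctsd at 14.66 (14.63 on each of the others). The remaining 8 were spread over other arrays. In KO DMSO, Ulk1 read 10.07 on array 3 (9.78 to 9.82) and Ctsb 14.66 on array 4 (14.72 to 14.73). In WT DMSO, Hexa read 13.94 on array 2 (13.91 to 13.92) and Npc2 14.36 on array 4 (14.29 to 14.30). Atg14 read 9.43 on array 1 of WT RA839 (9.14 to 9.19). Atg16l1 read 7.20 on array 1 of KO RA839 (7.26 on each of the others) and 8.27 on array 3 of siKeap1-1 (7.79 to 7.86). Npc1 read 11.52 on array 1 of siControl (11.26 to 11.29), and without that array Npc1 rose with siKeap1-2 (adjusted p = 0.0431 by limma).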

How the results depend on the processing

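Of 42 calls of members over the 5 comparisons with calls, 26 held with each array left out, and 15 of these held under all other settings too. The number of members past the threshold ranged, with 1 array left out, from 7 to 10 for KO against WT in DMSO, from 9 to 11 under RA839, from 4 to 10 for siKeap1-1 (4 without siKeap1-1 array 1, siControl array 2 or siControl array 4, 5 without siControl array 1), from 6 to 8 for siKeap1-2 and from 1 to 5 between the siRNAs (1 without siKeap1-2 array 2 or 3, 2 without siKeap1-1 array 4, 3 without siKeap1-2 array 1). It stayed at 0 for the RA839 comparisons. With only the groups compared it was 5 for siKeap1-1 and 1 between the siRNAs, and with median centring it was 3 between the siRNAs. Without probe sets that can match several transcripts, which leaves 27 members, Mcoln1 (0.22 in DMSO, 0.094 under RA839) and Becn1 (0.10 under RA839) were higher in KO and Wipi1 was higher with siKeap1-1 than with siKeap1-2 (0.22). None of these 4 passed; each is the value of another probe set.

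With the replicate number as a block, the count was 11 for siKeap1-1, 11 for siKeap1-2, 7 between the siRNAs and 12 for KO against WT under RA839, and it stayed at 0 for RA839 and at 9 for KO against WT in DMSO. Each block fit held all calls made without the block. Over all genes the block moved the calls from 120 to 486 for RA839 in WT, from 21 to 66 for the difference of the responses, from 2741 to 4371 and from 2038 to 3719 for the siRNAs, and from 1356 to 2665 between them.

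Other changes over all genes by more than 1.5 times were 65 for RA839 in WT and 845 between the siRNAs with only the groups compared, 13 for the difference of the responses without probe sets that match several transcripts, and 2805 and 3573 for KO against WT with brighter genes only, where fewer genes were tested. With 1 array left out, calls over all genes ranged from 72 to 136 for RA839 in WT, from 8 to 26 for the difference of the responses and from 849 to 1331 between the siRNAs. Median centring moved the share of higher genes among all calls from 57.6% to 37.7% for siKeap1-1 and from 56.4% to 41.7% for siKeap1-2. Leaving out both WT arrays numbered 2, chosen after seeing the data, gave 0 members for RA839 in WT, 11 for KO against WT in DMSO and 10 under RA839. The causes of these changes were not tested.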
